A study of Mus musculus with 2 samples.

Results

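The aminoacyl-tRNA synthetases are the enzymes that join each amino acid to its tRNA, and 36 of their genes were examined for open chromatin in mouse skeletal muscle. They were taken from a list of gene symbols, not from any measured value, but earlier results of these data were known when the list was chosen. In it 20 genes encode cytosolic enzymes and 16 mitochondrial ones, the latter with symbols ending in 2, out of 21938 protein-coding genes of the annotation on 21 chromosomes. DNase-seq, which sequences the ends of fragments that DNase I cuts from accessible chromatin, had been run on whole gastrocnemius, a calf muscle, of male B6CASTF1/J mice aged 25 days. There were 2 libraries, labelled biological replicates 1 and 2, with no treatment, no second genotype and no other group. The sample descriptions number different males, while both samples carry the same donor identifier, so the origin of the libraries in separate animals rests on those descriptions. Instrument models are named for replicate 1 only, and the sequencing of the libraries cannot be told apart from the difference between animals. B6CASTF1/J is a first-generation hybrid of a laboratory strain with the wild-derived CAST strain, and the peaks were placed on mm10, so reads from the CAST chromosomes were read against another strain's genome.

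Synthetases come in separate sets for the cytosol and the mitochondrion, both encoded in the nucleus. Several cytosolic enzymes (Eprs, Iars, Lars, Mars1, Qars, Rars, Kars and Dars) sit with the scaffold proteins Aimp1, Aimp2 and Eef1e1 in the multisynthetase complex, whereas Gars and Kars supply the enzyme of both compartments. When charged tRNA runs short, cells are known to translate the transcription factor ATF4, which raises transcription of many cytosolic synthetase genes through amino acid response elements. Muscle fibres depend on both sets, because they make contractile protein in the cytosol and respiratory subunits in dense mitochondria, and faults in several of these genes cause neuropathy, myopathy or cardiomyopathy.

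The deposited peak lists hold 97499 peaks for replicate 1 and 61664 for replicate 2. Peak signals are the authors' own values, and their steps read as tags per 1000000 tags of the library, with implied depths of 169 and 117 M tags. Promoters of all 8 muscle fibre markers were open in both libraries, where 63.0% of all coding genes were. Their median signal, 3.53 and 2.81, lay below that of coding genes with a promoter peak, 3.57 and 3.43. Promoters of 2 of 2 fibro-adipogenic, 2 of 2 endothelial and 2 of 2 neuronal markers were open as well. None of the 2 leukocyte or 2 hepatocyte markers (Ptprc, Cd68, Alb, Apoa1) had a promoter peak. The tissue is a mixture of cells, so a promoter open in fewer cells and a promoter less open in each cell cannot be told apart.

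All 36 synthetase promoters were open in both libraries, and cytosolic and mitochondrial genes were open to about the same degree. A peak lay within 1 kb of an annotated start for 20 of 20 cytosolic and 16 of 16 mitochondrial genes in both libraries. Among all coding genes the share was 66.5% in replicate 1, 64.2% in replicate 2 and 63.0% in the pair of libraries. All 36 also had a peak in the shorter, stricter list of each library, which reached 62.0% and 58.5% of coding genes. In replicate 1 the signal of the strongest promoter peak had a median of 4.86 over the cytosolic genes (3.41 to 10.0) and of 4.96 over the mitochondrial genes (3.34 to 7.29). In replicate 2 the medians were 4.55 (1.45 to 7.90) and 4.75 (2.77 to 8.91). The ranges of the classes overlapped in both libraries. The ratio of the medians, cytosolic over mitochondrial, was 0.969 ± 0.0153 (SD, n = 2 libraries), and without the 9 members whose window holds a start of another coding gene it was 1.02, so the data give no order of the classes. Members are not replicates of a class, and with 1 group of 2 libraries no test was made.

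Synthetase promoters were stronger than the typical open promoter without reaching the top of the range. The median over all 36 was 4.77 ± 0.133 (SD, n = 2), against 3.50 ± 0.0973 over the coding genes with a promoter peak. Signal exceeded that coding median in both libraries for 30 members, in 1 library for the other 6, and 0 members lay below it in both. The 6 were Gars, Hars, Hars2, Lars, Lars2 and Nars2. The middle of the strongest peak lay within 100 bp of a start for 35 members in replicate 1 and 33 in replicate 2, and 66.8% and 63.1% of coding genes with a promoter peak met that limit. The strongest peaks were 140 to 440 bp wide with medians of 220 and 240 bp, beside 220 and 270 bp over coding genes with a promoter peak. Those of the 2 libraries overlapped for 36 of 36 members, a share not computed over coding genes. Within 500 bp of the peak's middle, a median of 750.5 and 763 bases carried a deposited q-value below 0.05, beside 780 and 773 bases over coding genes.

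**Figure D1:**
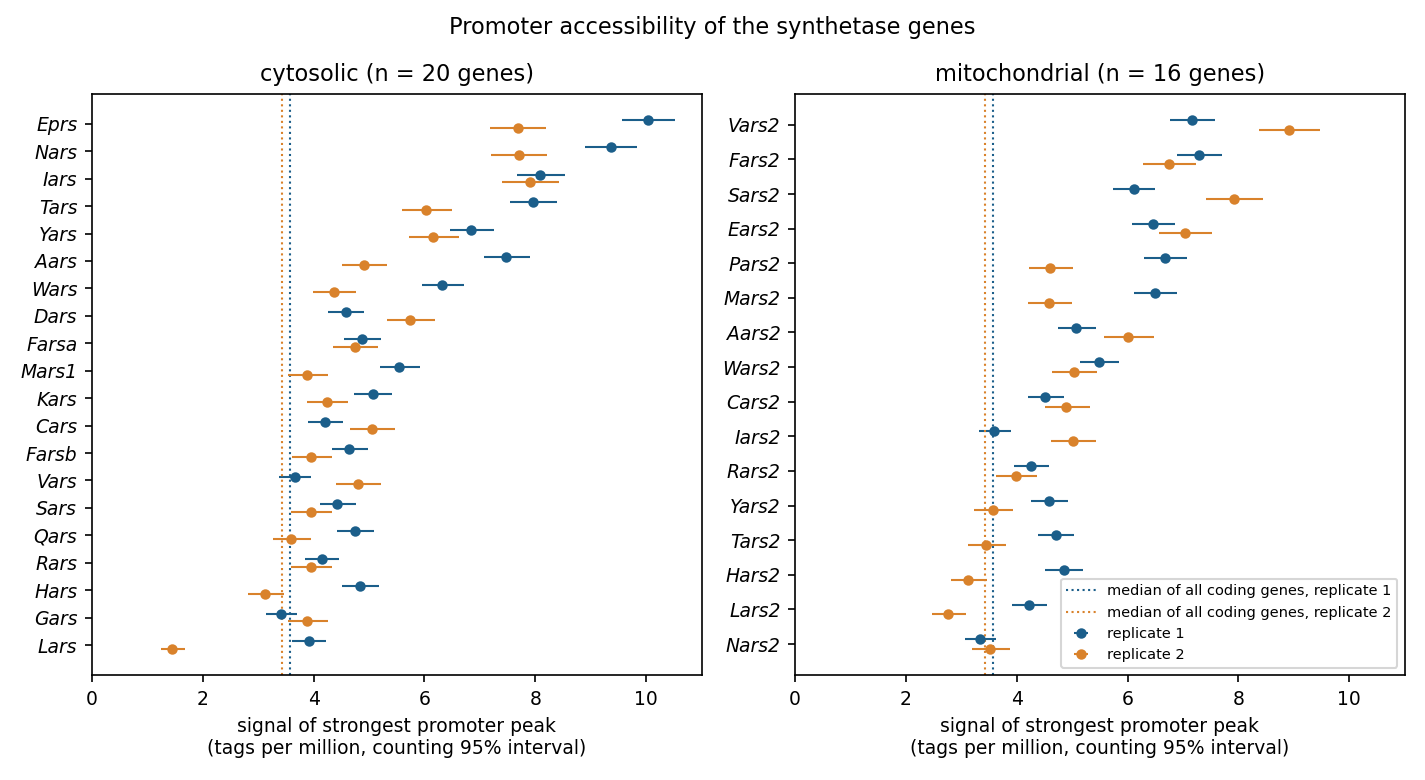
Signal of the strongest promoter peak of each synthetase gene (x axis, tags per 1000000 tags of the library), ordered by the mean of the libraries, with cytosolic genes on the left and mitochondrial genes on the right. Points are libraries, bars are 95% Poisson intervals that cover counting error only, and dotted lines mark the medians of all coding genes with a promoter peak (3.57 and 3.43); for 30 of the 36 genes each point lies to the right of its own library's line.

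By the mean of the libraries, the most open cytosolic promoter was that of Eprs, whose product joins glutamate and proline to their tRNAs with a single fused polypeptide. Its signal was 10.0 in replicate 1 (1696 tags) and 7.68 in replicate 2 (899 tags), a mean of 8.86 ± 1.66 (SD, n = 2), which placed it at percentiles 94.6 and 93.1 of coding genes with a promoter peak. The peak covered chr1:185362901-185363100 in replicate 1 and chr1:185362881-185363140 in replicate 2. The 200 bases up to the 30th base of the transcript are shown because they hold the footprints at the start and before it. A footprint is a short run of bases protected from DNase I inside open chromatin. Capitals mark the bases under a footprint in both libraries, which had 3 and 6 footprints there, sharing 70 bases in 4 stretches. The next footprint downstream, centred at 29 bp in replicate 1 and at 19 bp in replicate 2, lay at or beyond the end of the 200 bases. Sequences here and below are given 5′ to 3′ on the strand of the gene, from RefSeq GRCm38 (mm10), with starts from GENCODE.
Eprs, chr1:185362874-185363073, plus strand: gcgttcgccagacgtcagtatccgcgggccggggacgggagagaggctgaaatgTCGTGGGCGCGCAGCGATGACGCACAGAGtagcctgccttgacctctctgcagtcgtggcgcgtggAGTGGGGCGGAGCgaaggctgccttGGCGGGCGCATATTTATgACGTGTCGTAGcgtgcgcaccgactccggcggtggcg

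Nars, which charges asparagine tRNA, followed with 9.36 and 7.70 (mean 8.53 ± 1.17). Iars, for isoleucine, had nearly equal values of 8.09 and 7.90 (7.99 ± 0.139). In replicate 2 Nars and Iars both lay above Eprs. Tars, for threonine, had 7.96 and 6.03 (6.997 ± 1.36), and Yars, for tyrosine, 6.84 and 6.16 (6.50 ± 0.483). All 5 of these leading cytosolic genes exceeded the upper quartile of coding genes with a promoter peak in replicate 2 (5.30), and in replicate 1 as well (6.24).

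At the low end of the cytosolic set stood Lars, for leucine, with 3.91 in replicate 1 and 1.45 in replicate 2 (2.68 ± 1.74). Gars, the glycine enzyme of both compartments, had 3.41 and 3.89 (3.65 ± 0.340), at percentiles 48.3 and 57.0 of coding genes. Hars, for histidine, had 4.84 and 3.13 (3.99 ± 1.21). Of these 3, only Gars was higher in replicate 2 than in replicate 1.

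By the mean of the libraries, the enzymes of the multisynthetase complex spanned the whole cytosolic range. In replicate 1, however, Gars and Vars lay below Lars. Eprs and Iars were among the leading 5, and Lars had the lowest mean. Between them lay Dars, for aspartate (4.58 and 5.74), Mars1, for methionine (5.55 and 3.89), and Kars, for lysine (5.06 and 4.24). Qars, for glutamine, had 4.74 and 3.60, and Rars, for arginine, 4.15 and 3.95. The subunits of the cytosolic phenylalanine enzyme, Farsa and Farsb, had 4.88 and 4.74, and 4.64 and 3.96. The remaining cytosolic genes were Aars, for alanine (7.48 and 4.90), Wars, for tryptophan (6.32 and 4.37), Cars, for cysteine (4.21 and 5.05), Vars, for valine (3.66 and 4.80), and Sars, for serine (4.43 and 3.95).

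Vars2 had the most open mitochondrial promoter by the mean of the libraries, 8.03 ± 1.24, at percentiles 81.4 and 96.9. Its signal was 7.16 in replicate 1 (1210 tags), below that of Fars2, and 8.91 in replicate 2 (1043 tags). Fars2, which charges mitochondrial phenylalanine tRNA as a single chain, had 7.29 and 6.74 (7.01 ± 0.386). Sars2 had 6.11 and 7.91 (7.01 ± 1.27), and Ears2, which places glutamate on both glutamate and glutamine tRNAs in mitochondria, 6.46 and 7.03 (6.75 ± 0.401). Pars2, for proline, had 6.67 and 4.61 (5.64 ± 1.46). Vars2, Sars2 and Ears2 were higher in replicate 2, and Fars2 and Pars2 in replicate 1.

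The lowest mitochondrial promoters were those of Nars2 (3.34 and 3.52, mean 3.43 ± 0.126), Lars2 (4.22 and 2.77, 3.50 ± 1.03) and Hars2 (4.84 and 3.13). The other 8 mitochondrial genes lay between 3.45 and 6.50. Among them, Tars2 had no peak within 1 kb of the gene's 5′ end at position 95760206 of chromosome 3, and its peak (4.70 and 3.45) stood at an internal annotated start 5323 bp downstream, at position 95754883.

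The enzymes for 1 amino acid in the 2 compartments did not share a level. Of 15 cytosolic and mitochondrial pairs, the mitochondrial gene was higher in both libraries in 7 and the cytosolic gene in 4, and 4 pairs had no such order. Fars2 was set against both Farsa and Farsb, and both of these pairs are among the 7. So is the arginine pair, whose values were nearly equal. The pairs with Fars2, Rars2 and Sars2 among the 7, and with Yars among the 4, rest on a peak within 1 kb of another coding gene's start. The counts of pairs therefore give no order of the classes. The widest gap in favour of the cytosolic gene was at asparagine, where the log2 ratio of Nars over Nars2 was 1.49 and 1.13, and isoleucine came next in replicate 1 (Iars over Iars2, 1.17 and 0.66) and threonine in replicate 2 (Tars over Tars2, 0.76 and 0.81). The widest gap in favour of the mitochondrial gene was at valine in replicate 1 (Vars over Vars2, log2 ratio −0.97 and −0.89). In replicate 2 it was at serine (Sars over Sars2, −0.46 and −1.003). Phenylalanine came next in replicate 1 (Farsb over Fars2, −0.65 and −0.77) and leucine in replicate 2 (Lars over Lars2, −0.11 and −0.93). At arginine the log2 ratio of Rars over Rars2 was −0.04 and −0.01, a difference not detectable at this depth. Alanine, cysteine and tryptophan changed order between the libraries.

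Histidine could not be ordered at all. Hars and Hars2 start back to back and share 1 peak, so their values are the same peak counted under both names. Counting them, 9 members (4 cytosolic and 5 mitochondrial) had a start of another coding gene within 1 kb of the strongest peak, where 20.2% of coding genes open in both libraries did. The neighbours were Lyrm4 at Fars2, Mrps12 at Sars2, Ubfd1 at Ears2, S100pbp at Yars, Wdr25 at Wars, Terf2ip at Kars and Orc3 at Rars2, whose signal was 4.25 and 3.98. Mrps12 encodes a protein of the mitochondrial ribosome, and Orc3 a subunit of the origin recognition complex. Of the leading 5 mitochondrial promoters, Fars2, Sars2 and Ears2 were of this kind, and in each the signal cannot be assigned to either gene. Without the 9, the mitochondrial median was 4.65.

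The libraries ranked the synthetase promoters alike only in part. Over the 36 members the log2 signals of the libraries gave a Pearson's r of 0.660 and a Spearman's rho of 0.625, and over the 13818 coding genes with a promoter peak in each library rho was 0.940. These are correlations over genes that share their libraries, and the members span a narrower range (1.45 to 10.0) than all coding genes (0.106 to 32.2). After centring on the coding genes' median log2 ratio of 0.12, the log2 ratio of replicate 1 over replicate 2 ran from −0.59 at Iars2 to 1.31 at Lars. Lars was the 1 member beyond 2-fold, a limit passed by 1.98% of coding genes. In replicate 1 Lars had 1 peak of signal 3.91 at −17 bp from a start, and in replicate 2 it had 2 weaker peaks, 1 of 1.45 at −127 bp that overlapped the replicate 1 peak and 1 of 1.43 at 80 bp that did not. Without centring, the 95% counting intervals of the libraries lay apart for 23 of 36 members, beside 52.6% of coding genes, a share near the background.

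Counts of short sequence motifs differed between the classes, with no test of the difference. In the 300 bases around the middle of the strongest peak, the amino acid response element TGATGNAA (N is any base, both strands searched) was present in both libraries' windows for 7 of 20 cytosolic genes, 0 of 16 mitochondrial genes and 1.04% of coding genes with a promoter peak in both. The 7 were Aars, Cars, Gars, Iars, Mars1, Nars and Tars, which charge alanine, cysteine, glycine, isoleucine, methionine, asparagine and threonine tRNAs. Each match lay within 50 bp of an annotated start, from −32 bp at Gars to 25 bp at Mars1, whereas 40.7% of the 145 matches of all coding genes lay that near. In 6 of the 7 the element was on the strand opposite to the gene, as were 84 of the 145 matches of all coding genes. In those 6 the gene strand reads TTGCATCA at Cars, Iars, Mars1 and Tars and TTTCATCA at Aars and Gars. Aars had a further match at −145 bp, inside the window of replicate 1 only. The sequences show how alike the matches and how unlike their surroundings are, with the element in capitals. The Gars and Tars windows run from 70 bases before the start to 30 bases into the transcript. The others are the 30 bases around the match, which lie in exonic, untranslated sequence of at least 1 annotated transcript.
Aars, chr8:111033840-111033869, plus strand: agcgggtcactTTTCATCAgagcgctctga
Cars, chr7:143600045-143600074, minus strand: cggcgccgcggTTGCATCAgattctggaag
Gars, chr6:55037937-55038036, plus strand: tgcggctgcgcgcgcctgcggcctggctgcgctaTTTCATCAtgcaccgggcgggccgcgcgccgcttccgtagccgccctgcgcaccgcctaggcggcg
Iars, chr13:49682126-49682155, plus strand: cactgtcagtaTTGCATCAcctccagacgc
Mars1, chr10:127311638-127311667, minus strand: gccggttccgaTTGCATCAgcgtgggctcc
Tars, chr15:11399636-11399735, minus strand: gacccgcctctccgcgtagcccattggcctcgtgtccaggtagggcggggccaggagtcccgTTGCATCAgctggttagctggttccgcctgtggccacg

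A match is a description of letters and not evidence of binding. Footprints rarely covered these elements: the match was under a footprint in both libraries at 0 of the 7 genes and in replicate 2 alone at Aars, and over all coding genes 6.25% of the 144 with the element had it footprinted in both. At Cars the element lies next to a CCGGAAGT match, the motif of ETS factors such as GABPA, which was footprinted in both libraries. The 7 promoters had median signals of 7.48 and 5.05 (3.41 to 9.36 and 3.89 to 7.90), and the 13 cytosolic promoters without the element 4.74 and 4.24 (3.66 to 10.0 and 1.45 to 7.68). The ranges overlapped, with Nars, Iars, Tars and Aars high and Gars low among those with the element. The count depends on the window. In 150 bases around the middle it was 3 cytosolic and 0 mitochondrial genes (0.405% of coding genes), from 250 bases before to 50 after the 5′ end 4 and 0 (2.17%), and in the whole promoter windows 16 and 8 (42.8%).

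NRF1 is a transcription factor known for driving nuclear genes of mitochondrial function. GCATGCGC, searched on both strands, was in both windows for 3 of 16 mitochondrial genes (Rars2, Sars2 and Vars2), 0 of 20 cytosolic genes and 5.15% of coding genes. All 3 were under a footprint in both libraries, as was the motif at 81.3% of the coding genes that had it. Vars2, the most open mitochondrial promoter by mean signal, carried 2 matches, at −17 and −43 bp from the start, each footprinted in both libraries. Wars2 had a match at −38 bp that was footprinted in both libraries, but it fell outside the window of replicate 2. The Vars2 and Wars2 sequences run from 70 bases before the start to 30 bases into the transcript, the other pair are 30 bases around the match, and capitals mark the motif on either strand. The Sars2 match lies in an exon, 202 bp downstream of the nearest annotated Sars2 start, in the window shared with Mrps12.
Rars2, chr4:34614895-34614924, plus strand: cggccccgtgtGCATGCGCactccacactt
Sars2, chr7:28742195-28742224, plus strand: ggagtcggtgtGCGCATGCccagaaaaagc
Vars2, chr17:35667563-35667662, minus strand: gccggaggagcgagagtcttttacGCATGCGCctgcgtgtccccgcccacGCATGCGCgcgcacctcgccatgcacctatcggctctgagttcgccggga
Wars2, chr3:99140998-99141097, plus strand: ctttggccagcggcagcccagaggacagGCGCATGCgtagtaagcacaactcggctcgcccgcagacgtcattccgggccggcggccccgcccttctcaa

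The YY1 motif AAGATGGC, which can contain the initiation codon ATG, was in both windows for 2 cytosolic genes (Farsa and Kars) and 3 mitochondrial genes (Aars2, Wars2 and Yars2), against 4.60% of coding genes. It was footprinted in both libraries at Aars2, Farsa and Yars2, 3 of the 5, and at 21.1% of the coding genes that had it. The middle of the match lay 14 bp after a start at Aars2, 4 bp after one at Yars2 and at −93 bp at Farsa, on the gene strand in all 3, as the capitals show. The windows of Aars2 and Yars2 are again 100 bases long and that of Farsa 30.
Aars2, chr17:45506771-45506870, plus strand: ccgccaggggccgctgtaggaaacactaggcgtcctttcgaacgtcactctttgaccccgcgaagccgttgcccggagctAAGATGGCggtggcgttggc
Farsa, chr8:84856881-84856910, plus strand: ttgccacacttAAGATGGCgacgaccagct
Yars2, chr16:16302911-16303010, plus strand: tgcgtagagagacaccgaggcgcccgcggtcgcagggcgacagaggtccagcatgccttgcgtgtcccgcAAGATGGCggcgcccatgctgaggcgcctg

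The remaining motifs were found in both classes or in few members. CCGGAAGT was in both windows for 7 cytosolic genes (Cars, Farsa, Hars, Lars, Mars1, Nars and Wars) and 3 mitochondrial genes (Hars2, Pars2 and Rars2), the Hars and Hars2 matches being the same, against 7.37% of coding genes. It was footprinted in both libraries at Cars, Farsa, Wars and the shared Hars and Hars2 promoter, beside 34.5% of the coding genes that had it. The E-box CACGTG, bound by MYC, USF and MITF, was in both windows at Iars, Tars and Vars and at 0 mitochondrial genes, against 8.57%, and was footprinted in both at Iars and Tars. GGGCGGG of the SP1 family was at 10 cytosolic and 7 mitochondrial genes (46.5%), and CCAAT of NF-Y at 8 and 6 (31.8%), close to their backgrounds. ACTACANNT of ZNF143 and THAP11 was at Lars alone (4.10%). TCAAGGTCA of ESRRA (0.130%) and TAAAAATAG of MEF2 (0.174%), factors known for mitochondrial and muscle genes, matched 0 members, which says only that those letters were not in these windows. GC content of the windows differed between the classes, with medians of 60.7% and 61.0% in cytosolic, 63.5% and 63.5% in mitochondrial and 65.0% and 65.7% in all coding genes, and its part in the motif counts was not tested.

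**Figure D2:**
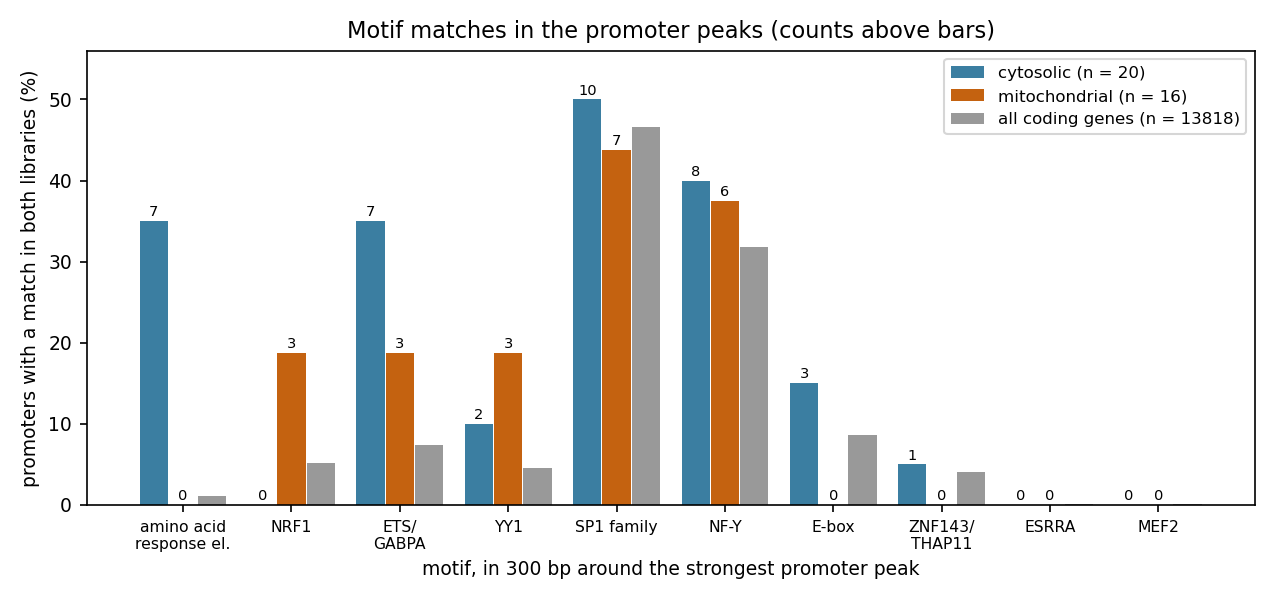
Percent of promoters (y axis) with each motif in the 300 bases around the strongest promoter peak in both libraries, for cytosolic genes, mitochondrial genes and all 13818 coding genes open in both libraries. Numbers above the bars count synthetase genes; the amino acid response element is at 7 cytosolic and 0 mitochondrial genes, and NRF1 at 0 and 3.

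Most footprints in the promoter windows lay near a start in both classes. Promoter windows of cytosolic genes held 138 footprints in replicate 1 and 119 in replicate 2, and those of mitochondrial genes 106 and 116. The median per gene was 6.5 and 5 for cytosolic and 6 and 6.5 for mitochondrial genes, beside 7 and 7 for coding genes with a promoter peak, so neither class stood apart. Of all members' footprints in these windows, 77.5% and 80.4% lay within 150 bp of a start. The windows were themselves placed around starts, and the share was not computed for all coding genes. A footprint of the other library overlapped 58.2% of those in replicate 1 and 64.7% of those in replicate 2, against 52.1% and 53.7% over coding genes. Ears2 (9 and 16), Sars2 (13 and 12), Farsb (10 and 12) and Fars2 (11 and 11) had many, as did Mars1 in replicate 1 (11 and 9), and Ears2, Sars2 and Fars2 each face a neighbouring start. Gars had 3 and 3, all 3 of replicate 1 overlapped in replicate 2. The deposited lists hold 243784 and 171389 footprints in all and give each the same constant, so footprints could not be ranked by strength.

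**Figure D3:**
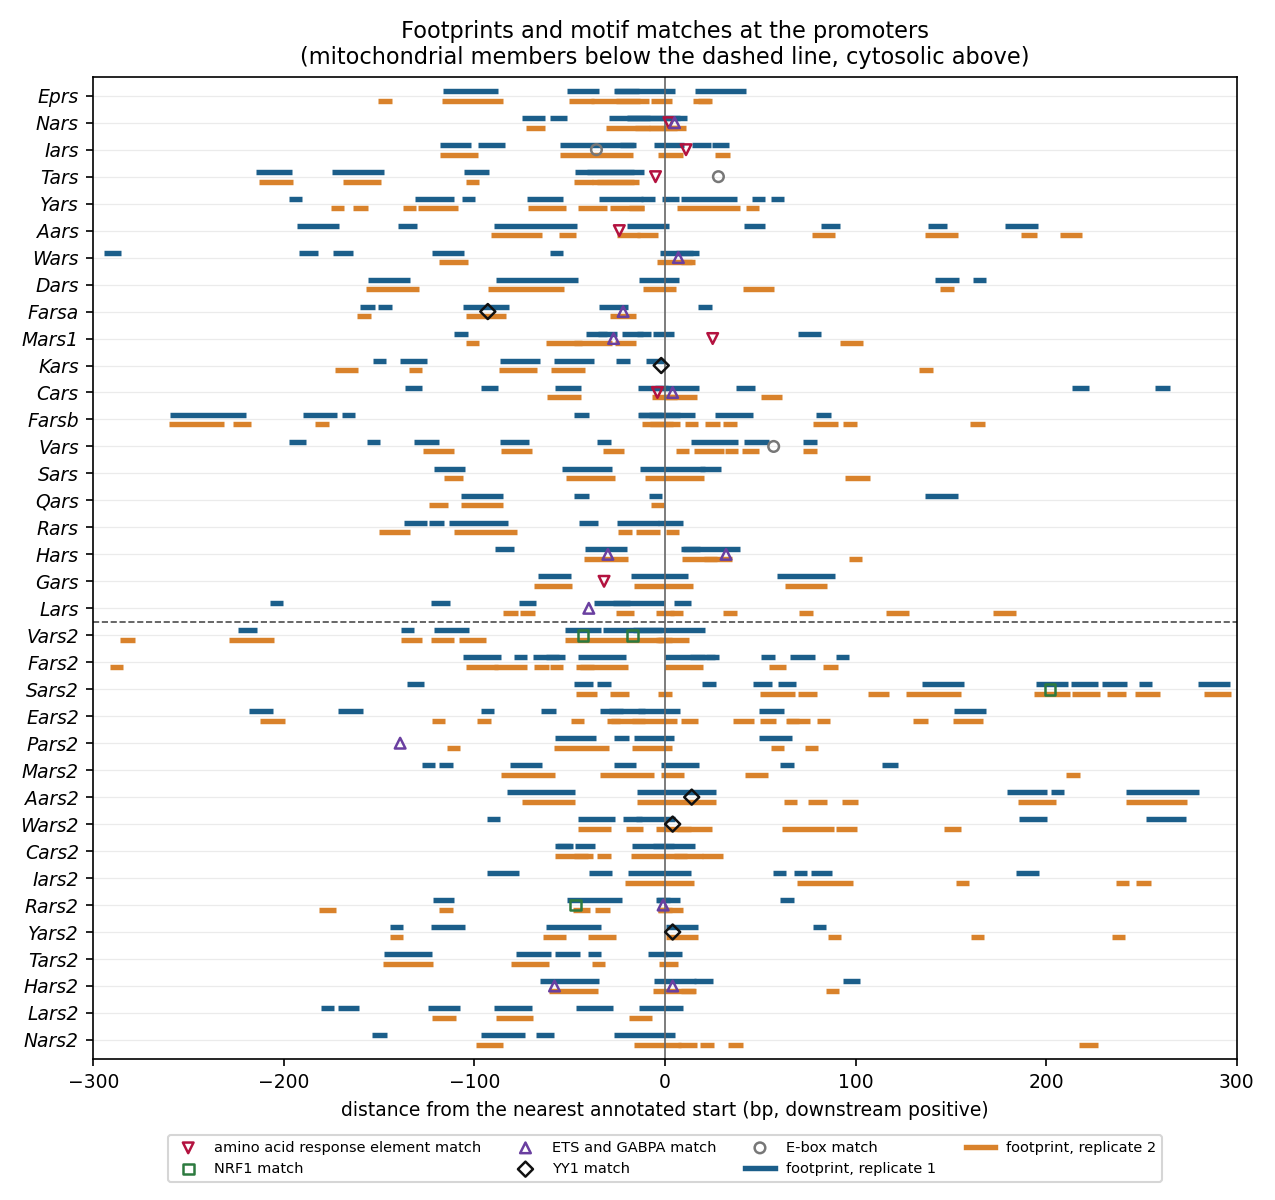
Footprints and motif matches at each synthetase promoter, by distance from the nearest annotated start (x axis, bp, downstream positive). Bars are footprints of replicate 1 (upper) and replicate 2 (lower) and symbols are motif matches inside the 300-base windows of both libraries; those of the amino acid response element lie from −32 to 25 bp, and those of NRF1 lie on bars of both libraries.

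Inside the gene bodies, beyond 1 kb of the gene's own starts, 23 members had no peak in either library, beside 56.5% of all coding genes, a share near the background. Each library had at least 1 such peak in 5 cytosolic genes (Aars, Cars, Dars, Farsb and Lars) and 4 mitochondrial genes (Cars2, Fars2, Iars2 and Lars2), where 28.7% of all coding genes did (41.4% in replicate 1 and 30.7% in replicate 2). In Lars the peaks of the libraries lay at different places, and in the other 8 genes at least 1 peak overlapped between the libraries. Per 100 kb of body the members had 3.56 and 1.19 peaks, and all coding genes 3.62 and 1.92. Cytosolic genes had 2.92 and 1.55 and mitochondrial genes 3.87 and 1.01, so the order of the classes changed between the libraries. Most of these peaks were weak, with median signals of 0.521 and 0.803, and 17 of the 57 in replicate 1 and 17 of the 19 in replicate 2 were overlapped by 1 from the other library. In some members little body was left outside the promoter windows, 0.190 kb at Qars and 1.66 kb at Vars2.

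Fars2, a gene of 608869 bp, had 19 and 6 such peaks, or 3.19 and 1.01 per 100 kb. In replicate 1 Lars2 followed with 8 (2 in replicate 2), then Farsb (5 and 1) and Iars2 (5 and 2). Cars had 4 and 3, the most after Fars2 in replicate 2, and all 3 overlapped a replicate 1 peak. Aars had 4 and 2, of which the strongest (3.93 and 3.91) lay in an exon within 1 kb of the start of Exosc6, a subunit of the RNA exosome, at chr8:111056201-111056400 in replicate 1.

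A peak in an exon of Lars2 outranked every synthetase promoter. At chr9:123461901-123462100 in replicate 1 and chr9:123461881-123462100 in replicate 2 its signal was 34.6 and 57.1, rank 2 of 97499 and of 61664 peaks. It lay 666 and 676 bp before the end of the gene and held 4 footprints in each library. Its sequence aligned at 90% identity or more to 12 other places on the 21 chromosomes over 50 bases or more. Of these, 7 were over 100 bases or more, with a longest alignment of 169 bases. Alignments to mitochondrial DNA and to unplaced sequences were not counted. The strongest inside peak of each of the 13 members with one and the promoter peaks of all 36 were searched in the same way, and this peak alone had such copies. The part that these copies have in its signal was not tested.

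**Figure D4:**
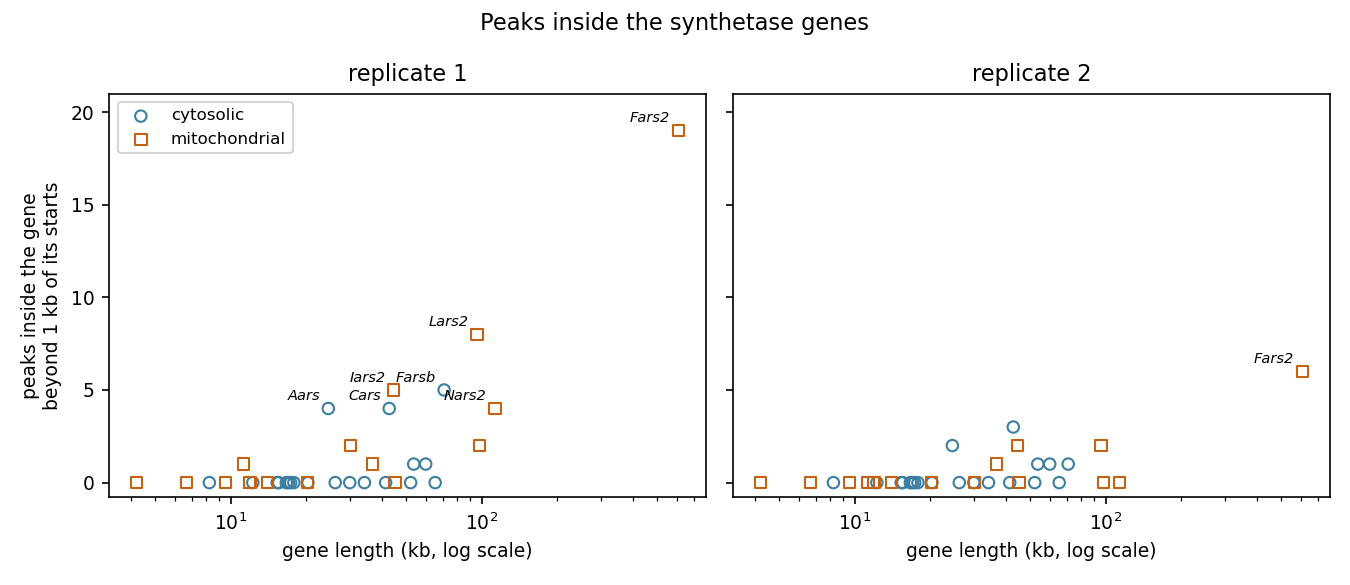
Number of peaks inside each synthetase gene beyond 1 kb of its starts (y axis) against gene length (x axis, kb, log scale), for each library. Circles are cytosolic and squares mitochondrial genes; Fars2, the longest, has 19 and 6 peaks, and 23 of the 36 genes have 0 in both libraries.

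The partners of the synthetases were open as well. All 42 genes of 6 related lists had an open promoter in both libraries, where 63.0% of all coding genes did. The scaffold genes of the multisynthetase complex had medians of 6.58 and 4.80, from Aimp2 (mean 5.47 ± 1.57) to Eef1e1 (5.90 ± 1.55), above the synthetase medians in both libraries. The amidotransferase that turns glutamate into glutamine on mitochondrial tRNA had 4.31 and 4.67, with Gatb highest (7.89 ± 2.32) and Gatc lowest (3.54 ± 0.495). Mitochondrial tRNA maturation genes had 4.87 and 4.50, from Hsd17b10, a subunit of the enzyme that cuts the tRNA 5′ end (1.83 ± 0.410), to Elac2, which cuts the 3′ end (6.96 ± 1.64). Cytosolic elongation factors had 7.40 and 5.47, with Eef2, the translocation factor, highest (10.9 ± 0.808), and Eef1a2, the form of elongation factor 1 alpha used in muscle and neurons, lowest (1.36 ± 0.223). Mitochondrial elongation factors had 4.18 and 3.67, from Gfm1 (3.06 ± 0.0212) to Tsfm (4.97 ± 0.377).

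The amino acid response list had medians of 5.70 and 5.16 and the widest spread, from Slc7a11, the cystine transporter (0.471 ± 0.0618), to Ddit3, a stress transcription factor (10.7 ± 3.03). TGATGNAA was in both windows for 4 of its 16 genes and for 0 of the other 26 genes of the lists. Over coding genes open in both libraries the share was 1.04%, so 0 of 26 does not set those genes apart. The 4 were Trib3, a pseudokinase that inhibits ATF4 (1.80 and 2.03), Asns, asparagine synthetase (0.869 and 1.14), Chac1, a glutathione-degrading enzyme (3.40 and 2.61), and Slc7a11 (0.515 and 0.427). The 7 synthetase promoters with the same element began at 3.41 in replicate 1 and at 3.89 in replicate 2. In replicate 1 the lowest of them, Gars (95% counting interval 3.13 to 3.70), could not be told from Chac1 at 3.40, and in replicate 2 the 4 genes lay below all 7. The difference between these sets of genes was not tested.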

How the data were processed

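DNase-seq peaks and footprints of 2 gastrocnemius libraries were used as the authors deposited them, on mm10 per the labels and called on each library by itself per the deposited notes. For the aligner and the callers, name and version were not given in the sources used here. Deposited peak signal is the authors' own value: 100% of signals were whole multiples of 1 step per library (within 0.1 tag), so it was read, from the values and from no source, as tags per 1000000 tags. The deposited footprint files hold a constant of 0.01, and the authors' per-position q-value is listed below 0.05. The longer peak list of each library was used.

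Starts came from GENCODE M21 and sequence from RefSeq GRCm38; the first 20 bases of 292 of 292 transcripts of the members equalled the genome. GENCODE lists Mars1 as Mars. Windows ran 1000 bp either side of any annotated start, overlap meant 1 bp or more, motifs were searched on both strands of 300 bases around the middle of the strongest promoter peak, and a match counted as footprinted when 4 or more of its bases lay under footprints. A share of coding genes with a motif is over genes open in both libraries. Intervals are 95% Poisson intervals of tag counts and cover counting error only. Members, lists and motifs were chosen with earlier results of these data known. All 36 members were accounted for, and values per library were given for the 5 highest and 3 lowest of each class, members beyond 2-fold between libraries, beside another start or with TGATGNAA, the 3 members with the most inside peaks, and the highest and lowest gene of each related list. Alternatives changed the window, the starts, the peak list, the peak chosen, the members kept and the library. Copies of peaks were sought with blastn 2.17.0 and counted on the 21 chromosomes. Other steps used Python 3.11.15, pysam 0.24.0 and scipy 1.17.1, tested on simulated data.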

Additional observations from a re-analysis of the deposited data

How the results depend on the processing

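Under 9 alternatives each, the numbers of cytosolic and mitochondrial genes with a promoter peak stayed at all genes kept (18 of 18 without Gars and Kars), except that 15 of 16 mitochondrial genes had one at the 5′ end alone. Leaving out either library gave 20 and 16, cytosolic medians of 4.55 to 4.86, mitochondrial medians of 4.75 to 4.96, ratios of 0.959 to 0.980, median footprints of 5 to 6.5 and of 6 to 6.5, 5 cytosolic and 4 to 8 mitochondrial genes with an inside peak (8 without replicate 2), and 7 and 0 genes with TGATGNAA. Summing the promoter peaks moved the medians to 5.49 and 5.59 and the ratio to 0.987. The ratio was 0.992 with windows of 2000 bp, 0.992 without Gars and Kars, 0.944 with the 5′ end alone, and 1.02, on the other side of 1, without members sharing a window, when the mitochondrial median was 4.65. The shorter peak list left 3 cytosolic and 2 mitochondrial genes with an inside peak, as did the stronger 50% of peaks. Footprints lying whole inside a promoter peak had medians of 4.5 and 4.5. TGATGNAA was found in 3 cytosolic genes with 150 bases, in 4 with the window from 250 bases before to 50 after the 5′ end, and in 16 cytosolic and 8 mitochondrial genes over whole windows. The cause of these shifts was not tested beyond what each setting adds or removes. No paired analysis was possible because there is 1 group. Tag counts of 170 to 1696 behind the strongest promoter peaks set the counting error, and 2 libraries limit what can be said of animals.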
